A study of Homo sapiens with 2 samples.

Results

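NUDT21 CUT&Tag peaks were examined at 8 tumour suppressor genes of T-cell acute lymphoblastic leukemia (T-ALL), out of 20033 protein-coding genes on the main chromosomes. The genes were CDKN2A, CDKN2B, CDKN1B, RB1, FBXW7, PHF6, CNOT3 and INPP5D, taken by name from GENCODE release 44. A peak belonged to a gene if its nearest edge was no more than 3000 bp from any of the gene's annotated starts (a promoter peak), elsewhere over the gene (a gene-body peak), or within 1000 bp past the gene's end. Both libraries came from J.gamma1 cells, a T-ALL line for which the labels name no treatment, and were prepared with the same NUDT21 antibody. They were 2 independent biological replicates of 1 group, and no library without the antibody or without NUDT21 was analysed here. J.gamma1 is known as a derivative of the Jurkat line that lacks phospholipase C gamma 1, so all values describe 1 line. By the rule, 59 of 92722 peaks in replicate 1 and 47 of 66671 peaks in replicate 2 belonged to the 8 genes. Since no second condition was measured, the values are descriptions of these libraries and no test was run.

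NUDT21 is the small subunit of cleavage factor I, which binds UGUA in pre-mRNA and helps to select the poly(A) site. CUT&Tag maps where a protein sits on or near chromatin: an antibody guides a transposase that cuts and tags the DNA nearby. The 8 genes restrain growth at different steps. CDKN2A, CDKN2B and CDKN1B encode inhibitors of cyclin-dependent kinases, RB1 encodes the pocket protein that those kinases inactivate, and FBXW7 is the substrate receptor of a ubiquitin ligase for NOTCH1, MYC and cyclin E. PHF6 is a chromatin reader, CNOT3 is a subunit of the CCR4-NOT deadenylase, and INPP5D (SHIP1) is an inositol phosphatase that dampens PI3K signalling.

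Promoter sequences of members with and without peaks are shown first, so that their make-up can be compared. They are the bases upstream of RefSeq starts (GRCh38.p14, 5′ to 3′ along the gene, stretches in annotated UTRs left out), with each CG dinucleotide in capitals. The first 3 lay inside or beside a peak in both replicates, and the last 4 held no peak in either.
CDKN1B, chr12:12717118.0-12717367.0, plus strand: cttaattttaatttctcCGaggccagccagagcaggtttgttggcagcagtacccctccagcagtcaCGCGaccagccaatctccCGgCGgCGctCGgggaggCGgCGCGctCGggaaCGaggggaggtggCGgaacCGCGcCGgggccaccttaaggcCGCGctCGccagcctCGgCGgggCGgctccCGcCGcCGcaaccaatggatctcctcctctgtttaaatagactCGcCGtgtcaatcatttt
CNOT3, chr19:54137512.0-54137748.0, plus strand: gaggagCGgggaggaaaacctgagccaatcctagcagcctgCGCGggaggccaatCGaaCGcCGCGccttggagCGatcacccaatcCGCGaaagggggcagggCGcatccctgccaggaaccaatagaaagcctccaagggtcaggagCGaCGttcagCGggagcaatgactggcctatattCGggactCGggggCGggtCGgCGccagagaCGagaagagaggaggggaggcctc
FBXW7 first start, chr4:152536093.0-152536342.0, minus strand: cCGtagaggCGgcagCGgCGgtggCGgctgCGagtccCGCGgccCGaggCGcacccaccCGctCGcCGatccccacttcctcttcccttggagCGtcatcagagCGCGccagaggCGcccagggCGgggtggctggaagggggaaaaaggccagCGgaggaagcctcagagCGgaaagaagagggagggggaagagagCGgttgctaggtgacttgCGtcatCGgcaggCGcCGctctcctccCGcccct
CDKN2A INK4a start, chr9:21974867.0-21975107.0, minus strand: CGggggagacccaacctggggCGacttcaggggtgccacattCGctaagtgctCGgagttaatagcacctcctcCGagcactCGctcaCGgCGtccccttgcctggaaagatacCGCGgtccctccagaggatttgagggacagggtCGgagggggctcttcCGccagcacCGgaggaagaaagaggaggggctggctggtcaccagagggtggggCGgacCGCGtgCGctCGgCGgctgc
CDKN2A ARF start, chr9:21995325.0-21995574.0, minus strand: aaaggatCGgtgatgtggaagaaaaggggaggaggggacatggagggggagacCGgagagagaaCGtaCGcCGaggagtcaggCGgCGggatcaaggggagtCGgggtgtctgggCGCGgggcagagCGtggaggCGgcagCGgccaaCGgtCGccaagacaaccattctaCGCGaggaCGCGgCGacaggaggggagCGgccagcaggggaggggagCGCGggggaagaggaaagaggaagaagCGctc
CDKN2B, chr9:22009306.0-22009555.0, minus strand: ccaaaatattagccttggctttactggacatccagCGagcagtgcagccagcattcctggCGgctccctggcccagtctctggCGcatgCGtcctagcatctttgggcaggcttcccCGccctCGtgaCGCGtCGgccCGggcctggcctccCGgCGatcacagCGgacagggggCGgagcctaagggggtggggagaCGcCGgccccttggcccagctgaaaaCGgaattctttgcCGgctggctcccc
FBXW7 internal start, chr4:152382530.0-152382779.0, minus strand: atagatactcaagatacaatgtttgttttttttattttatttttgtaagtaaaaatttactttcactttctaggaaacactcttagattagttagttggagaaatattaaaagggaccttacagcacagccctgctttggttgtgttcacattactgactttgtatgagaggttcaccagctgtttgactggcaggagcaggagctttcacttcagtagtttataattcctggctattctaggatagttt
Of the 8 genes, 7 had an entry in the RefSeq table, which held 35116 windows of 300 bases with a median of 14 CG dinucleotides. PHF6 had none there, and RB1 had only an internal start. Each window spans 250 bases before and 50 after a start. The window of CDKN1B held 29 CG dinucleotides, that of CNOT3 30 and that of the first FBXW7 start 30. Those without peaks at 9p21 were about as rich, with 26 at the INK4a start, 28 at the ARF start and 25 at CDKN2B. The internal FBXW7 start, at which no peak was called, held 0. CDKN1B and the first FBXW7 start were covered over all 300 bases by peaks in both replicates, and CNOT3 over 259 bases in each. The letters TGTA, searched on both strands (as TGTA or TACA), occurred 0 times in each of the 3 covered windows and in each of the 3 at 9p21, and 4 times at the internal FBXW7 start. The INPP5D window did not share this make-up: it held 12 CG dinucleotides and TGTA 3 times, and all 300 of its bases lay in a peak of replicate 1 but 0 in a peak of replicate 2. The replicate 2 peak began at position 233060398, just past the window's end at 233060391. A further FBXW7 window, just inside the gene, held 25 CG dinucleotides and TGTA 1 time, with 72 bases in a peak of replicate 1 and 0 in replicate 2. Among further windows without a peak, another internal FBXW7 start held 6 CG and the internal RB1 start 0, each with TGTA 3 times. The CG-rich windows without a peak in either replicate were thus all at 9p21. Loss of that locus and absence of NUDT21 cannot be told apart, so these windows cannot show whether CG content or TGTA separates starts with peaks. Over all protein-coding genes, promoter peaks in both replicates were found at 19.6% in the lowest of 5 GC quintiles. In the following quintiles, up to the highest, the shares were 59.9%, 68.6%, 69.1% and 68.8%. Of all windows in the table, 58.5% held TGTA at least 1 time on either strand. All of these are counts of letters in DNA, mostly upstream of starts, and not of UGUA in RNA, which NUDT21 binds.

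Promoter peaks were present in both replicates at 5 of the 8 genes, namely CDKN1B, RB1, FBXW7, CNOT3 and INPP5D. CDKN2A, CDKN2B and PHF6 had no peak by any part of the rule in either replicate. Among all protein-coding genes, the share with promoter peaks in both was 57% (69.8% in replicate 1 and 57.9% in replicate 2), so 5 of 8 was near the background. Without any peak in either replicate were 25.2% of protein-coding genes, beside 3 of 8 members. Gene-body peaks outside the promoters were found in both replicates at 3 members (RB1, FBXW7 and INPP5D), beside 28.6% of all genes. A peak outside the promoters with its summit within 1000 bp of the gene's 3′ end was found at 1 member, INPP5D, beside 16.3% of all genes.

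The height of a peak was read from the deposited fold, the pileup at the summit over the level expected locally, and was ranked within each replicate. The fold percentile is the share of that replicate's peaks with a lower fold. By the strongest promoter peak, CNOT3 stood first with a mean fold percentile of 97.0% ± 0.704 (SD, n = 2), followed by INPP5D with 85.5% ± 3.74, CDKN1B with 81.4% ± 1.35, FBXW7 with 72.6% ± 7.21 and RB1 with 66.4% ± 4.51. The values of CNOT3 lay above those of the other genes in both replicates. The strongest peak is a maximum over unequal numbers of promoter peaks, 16 and 13 at INPP5D in replicates 1 and 2, 6 and 4 at CNOT3, 3 and 2 at CDKN1B, 2 and 1 at FBXW7 and 1 in each at RB1, and at CNOT3 and INPP5D it was a different peak in each replicate. At the peak nearest to the canonical start, CNOT3 was again highest, with 92.3% and 92.5%, and INPP5D was lowest, with 26.4% and 49.2%. INPP5D and CDKN1B were ordered alike in both, with 88.2% against 82.4% in replicate 1 and 82.9% against 80.5% in replicate 2, but these differences were of the size of the spread between replicates. FBXW7 and RB1 changed order between replicates. The order also depended on ranking by fold. Ranked by the deposited −log10 p, the FBXW7 peak at the first start stood at 96.2% and 97.2%. That was below CNOT3 (97.6% and 97.9%) but above every promoter peak of INPP5D (at most 89.3% and 85.2%) and CDKN1B (88.8% and 79.6%). The median over the 5 genes was 81.4% ± 1.35 (SD of the replicates' medians, n = 2), and over the 11425 protein-coding genes that met the same condition it was 83.2% ± 6.87.

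**Figure D1:**
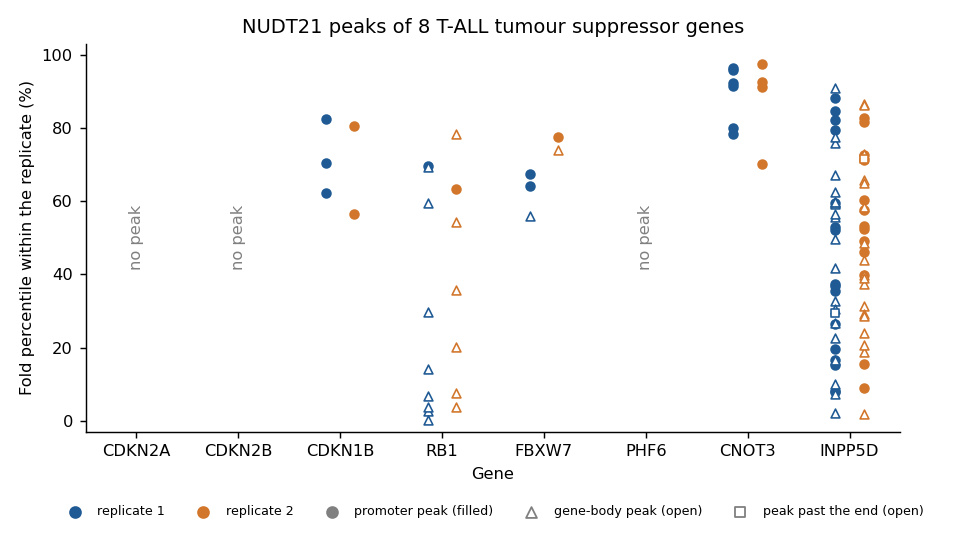
Fold percentile of every peak of the 8 genes (y axis, share of the replicate's peaks with a lower fold, in %), by gene (x axis) and replicate (colour), with promoter peaks as filled circles, gene-body peaks as open triangles and peaks past the gene's end as open squares. CNOT3 held the highest promoter peak in both replicates (96.5% and 97.5%), INPP5D spread over nearly the whole scale, and CDKN2A, CDKN2B and PHF6 had no peak.

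CDKN1B (ENSG00000111276.12, chr12:12685498-12722369, plus strand), which encodes the kinase inhibitor p27, had 3 and 2 peaks in replicates 1 and 2. The strongest reached a fold of 5.64 in replicate 1 and 5.65 in replicate 2, and their summits lay 99 and 195 bp upstream of the canonical start. Both summits were within an intron of longer transcripts, since the annotated gene begins far upstream of that start. The number of fragments at the summit, solved from the deposited fold and p-value, was 54 in replicate 1 and 24 in replicate 2 (medians over all peaks, 30 and 20). A further peak about 4 kb upstream, with folds of 4.41 and 4.45, was also present in both. The third peak of replicate 1 lay over the coding exon, 871 bp past the start, with a fold of 4.81. In replicate 2 the peak at the start reached 1359 bp and covered that place as well.

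CDKN2A (ENSG00000147889.18, chr9:21967752-21995301, minus strand), which encodes INK4a and ARF, and its neighbour CDKN2B (ENSG00000147883.12, chr9:22002903-22009305, minus strand), which encodes INK4b, lay in a stretch of 6.21 Mb without any peak of either replicate. The stretch ran from position 20684816 to 26892273 of chromosome 9 and held the canonical starts of 25 protein-coding genes. These were CDKN2A, CDKN2B, MTAP, KLHL9, HACD4, DMRTA1, ELAVL2, IZUMO3, TUSC1 and 16 interferon genes. MTAP, an enzyme of methionine salvage, is known to be lost together with CDKN2A in many tumours. The nearest peak on the left was near the start of FOCAD, 1.28 Mb from CDKN2A, with a fold of 3.51 in replicate 1 and 3.02 in replicate 2. On the right it was near the start of CAAP1, 4.90 Mb away, with folds of 5.65 and 7.66. The edge at each side of the stretch was thus called in both replicates.
The region around the stretch was itself poor in peaks. In the 5 Mb to the left there were 16 peaks in replicate 1 and 8 in replicate 2, and in the 5 Mb to the right 2 in each. Chromosome 9 as a whole had 33.3 peaks per Mb in replicate 1 and 25.8 in replicate 2. Among the 2613 stretches that held a protein-coding start and no assembly gap (at least 50 kb long), this stretch was 15th in length, and 6 held more protein-coding starts. Only 3 of its 25 starts (CDKN2A, CDKN2B and TUSC1) were in the upper 2 quintiles of promoter GC content, and 21 stretches held more such starts. Jurkat cells are known to carry a homozygous deletion that includes CDKN2A and CDKN2B. Copy number was not measured in these libraries, and a peak list does not say whether any read was aligned there. Loss of the locus and absence of NUDT21 from a locus that is present therefore cannot be told apart at CDKN2A and CDKN2B, and the length of the stretch does not mark the ends of a deletion.

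**Figure D2:**
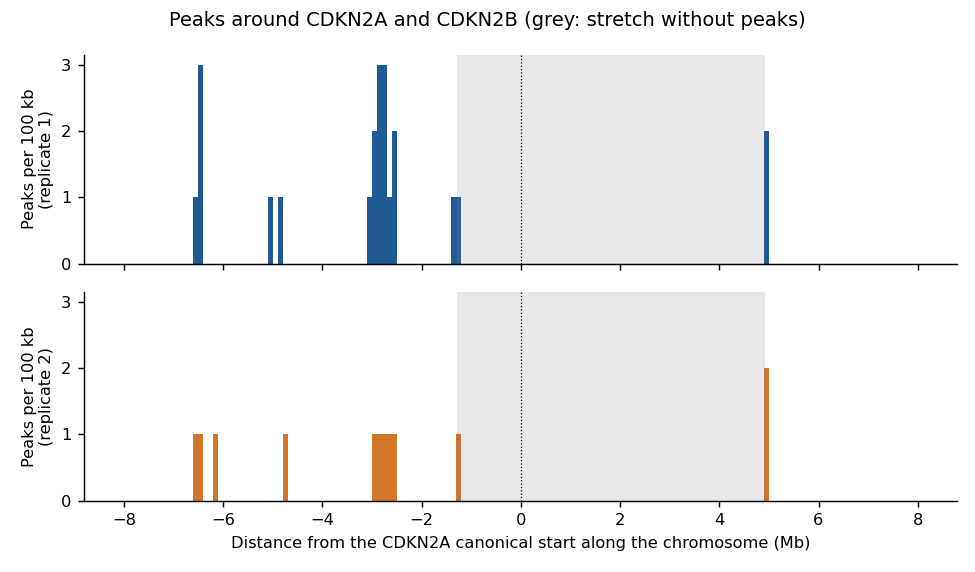
Number of peak summits per 100 kb (y axis) against the distance from the canonical CDKN2A start (x axis, in Mb along chromosome 9) in replicate 1 (top) and replicate 2 (bottom), with the stretch of 6.21 Mb without peaks in grey. No bar stands inside the stretch beyond its edge, and the flanks hold at most 3 peaks per 100 kb.

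RB1 (ENSG00000139687.16, chr13:48303744-48599436, plus strand) had 1 promoter peak in each replicate, with a fold of 4.77 and 61 fragments in replicate 1 and a fold of 4.69 and 24 fragments in replicate 2. The summits lay 171 bp past and 239 bp upstream of the canonical start, the first in the coding part of exon 1. RB1-DT, a divergent lncRNA, begins at the same place, so the peak cannot be credited to RB1 alone. Over the gene body there were 8 peaks in replicate 1 and 6 in replicate 2. A cluster of 3 peaks lay between 13 and 17 kb past the start in both replicates, over PPP1R26P1, a processed pseudogene in an intron of RB1. Their folds were 2.52, 2.27 and 4.31 in replicate 1 and 3.31, 2.67 and 4.38 in replicate 2. The intron around this pseudogene is known for an imprinted CpG island. The highest gene-body peak lay 267 kb past the start, over LINC01077 and near its start, with a fold of 4.74 in replicate 1 and 5.50 in replicate 2. The gene as annotated in this release is 295693 bp long and also overlaps RCBTB2, over which a replicate 1 peak with a fold of 1.96 lay. Peaks deep in this span therefore cannot be credited to RB1 alone. A peak over the intronic gene LPAR6 had folds of 2.35 and 3.79. The other 4 gene-body peaks (3 of replicate 1 and 1 of replicate 2) had folds between 1.96 and 3.32 and no counterpart in the other replicate.

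FBXW7 (ENSG00000109670.17, chr4:152320544-152536092, minus strand) was occupied at its first start. The peak there had a fold of 4.65 in replicate 1 and 5.43 in replicate 2, with summits 193 and 324 bp upstream. It rested on the largest numbers of fragments among the 8 genes, 125 and 71, but the expected level was also high, 24 and 12.3 (against medians of 6 and 3.90 over all peaks). MIR4453HG, a lncRNA gene, starts within 3000 bp and overlaps the summit. A weaker promoter peak, 1061 bp past the start in the 5′ UTR, was called in replicate 1 with a fold of 4.49. A gene-body peak in an intron, 29.7 kb past the start, had a fold of 4.17 in replicate 1 and 5.24 in replicate 2. It lay under the lncRNA ENSG00000287555. Of the 19 annotated starts of FBXW7, those deeper in the gene had no peak, including the internal start shown above. FBXW7 was the member whose strongest promoter peak differed most between replicates, by 10.2 percentage points of the fold percentile (median absolute difference over all genes, 8.27 points).

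PHF6 (ENSG00000156531.18, chrX:134373288-134428791, plus strand) had no peak in either replicate. The nearest peaks of replicate 1 were 199 kb to the left, with a fold of 4.15, and 121 kb to the right, with a fold of 2.85. In replicate 2 they were 2577 kb and 414 kb away, with folds of 2.99 and 3.86. The stretch of 376 kb without a peak of either replicate held 3 protein-coding starts, those of CCDC160, PHF6 and HPRT1, a housekeeping gene of purine salvage. Chromosome X was sparse throughout, with 7.88 peaks per Mb in replicate 1 and 4.61 in replicate 2, against 31.8 and 22.9 on the autosomes. Promoter peaks called in both libraries, were found at 26.4% of the 859 protein-coding genes of chromosome X, against 57% of all. The PHF6 start had a GC content of 65.0%, in the third of 5 quintiles, in which promoter peaks in both were found at 68.6% of all genes but 31.9% of those on chromosome X. The absence of a peak at PHF6 thus went with a low share on its whole chromosome. The part of copy number or of the chromatin of chromosome X in it was not tested.

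**Figure D3:**
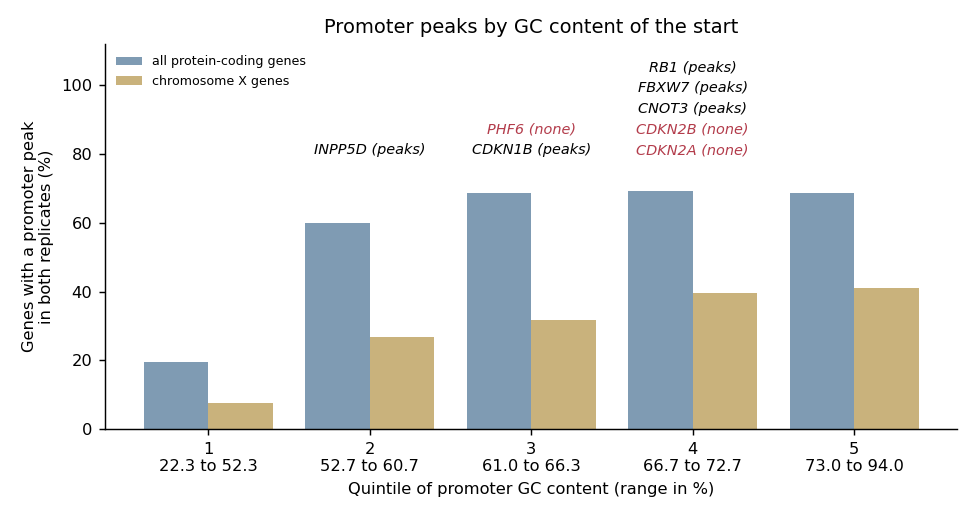
Share of genes whose promoter was called in both replicates (y axis, in %) by quintile of GC content of the 300 bases around the canonical start (x axis), for all protein-coding genes and for those on chromosome X, with the 8 members named above their quintile. CDKN2A and CDKN2B fall in the same quintile as CNOT3, FBXW7 and RB1, where 69.1% of all genes had a peak, and PHF6 falls in a quintile with 68.6% for all genes and 31.9% on chromosome X.

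CNOT3 (ENSG00000088038.20, chr19:54137749-54155681, plus strand) had the highest peaks of the 8 genes. All of its 6 peaks in replicate 1 and 4 in replicate 2 counted as promoter peaks, because its 11 annotated starts are spread over a short gene. Of them, 2 in each replicate lay within 3000 bp of the canonical start. The peak at that start had a fold of 7.18 with 108 fragments in replicate 1 and 7.16 with 62 fragments in replicate 2. A second peak about 1.9 kb past the start, in an intron, had folds of 9.04 and 6.95. The peak 9.3 kb past the start had folds of 6.98 and 5.02, and the one 13773 bp past the start in both replicates had folds of 8.68 and 9.29. The strongest peak was thus a different one in each replicate. These 4 peaks overlapped between replicates, and the other 2 of replicate 1, with folds of 5.32 and 5.43, did not. The strongest peak of CNOT3 lay above those of 74.9% and 86.2% of the 11425 genes called in both replicates. The fold of the peak about 1.9 kb past the start rested on 34 and 17 fragments over an expected level of 2.58 and 1.59, so few fragments move it.

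INPP5D (ENSG00000168918.14, chr2:233059967-233207903, plus strand) carried peaks along its whole length. There were 38 in replicate 1 and 32 in replicate 2, of which 25 in each overlapped a peak of the other replicate. They covered 20.8% and 14.9% of the gene. Among the 2841 protein-coding genes of 100 to 300 kb, the median was 2 peaks in replicate 1 and 1 in replicate 2, and INPP5D had more than 95.7% and 96.5% of them. RB1, with 9 and 7, had more than 79.6% and 83.1%, and FBXW7, with 3 and 2, more than 58.5% and 60.2%. Longer genes have more room for peaks, and INPP5D was the shortest of these 3.
The many peaks of INPP5D were not the highest at its canonical start. The peak there had a fold of 3.23 in replicate 1 and 4.21 in replicate 2, at the 26.4th and 49.2nd percentile. The strongest promoter peak of replicate 1, with a fold of 6.34, lay 3624 bp past the start, where replicate 2 had a fold of 5.76. The strongest of replicate 2, with a fold of 5.84, lay 57.6 kb past it, in an intron and 2674 bp from the nearest annotated start, where replicate 1 had a fold of 5.88. The highest gene-body peak lay 54258 bp past the start in both replicates, with folds of 6.86 and 6.21. The lowest peaks of the gene had folds of 2.23 and 2.53. Jurkat cells are known to lack SHIP1 protein. These libraries hold no measure of RNA or protein, so the peaks cannot be set beside it.
The peak past the end of INPP5D, with a fold of 3.32 in replicate 1 and 5.07 in replicate 2, lay within 3000 bp of the start of ATG16L1, an autophagy gene that follows on the same strand. It was the only member peak counted at a gene end, and whether it belongs to the end of INPP5D or the start of ATG16L1 cannot be told apart.

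**Figure D4:**
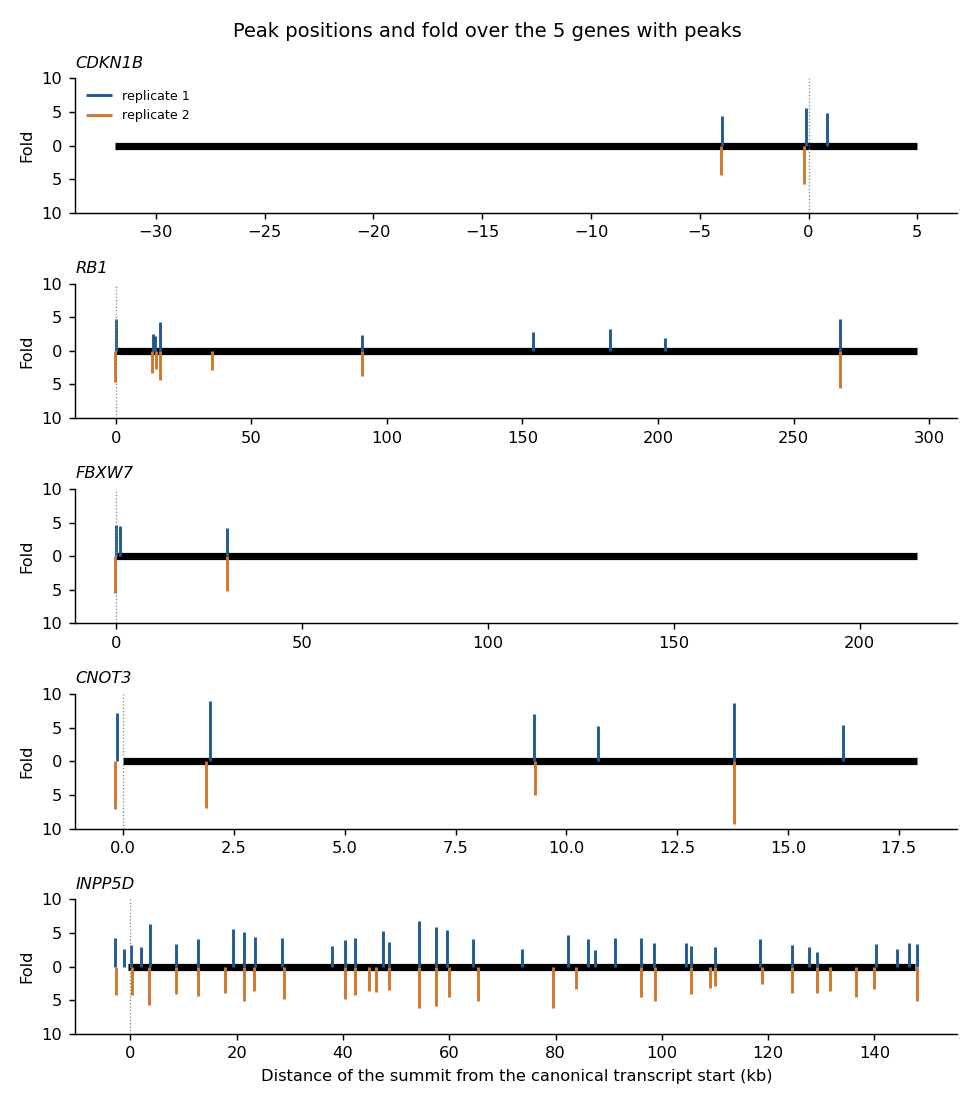
Fold of each peak (y axis, replicate 1 upward and replicate 2 downward) against the distance of its summit from the canonical transcript start (x axis, in kb along the gene) for the 5 genes with peaks, with the annotated gene as a black bar and the canonical start as a dotted line. FBXW7 holds a peak at the start and 1 in the gene body, RB1 holds a peak at the start and 8 and 6 in the gene body, CNOT3 holds peaks with folds of up to 9.29 along the gene, and the 38 and 32 peaks of INPP5D run from start to end.

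By position, 44 of the 59 summits in replicate 1 and 41 of the 47 in replicate 2 lay in introns of the members, 7 and 1 in coding exons, 1 and 0 in 5′ UTRs and 1 and 0 in 3′ UTRs. Of the 59 peaks in replicate 1, 67.8% overlapped a peak of replicate 2, and of the 47 in replicate 2, 83.0% overlapped a peak of replicate 1. Over all peaks the shares were 56.4% and 85.7%. The median fold of the member peaks was 4.17 in replicate 1 and 4.38 in replicate 2, beside 3.95 and 4.23 over all peaks.

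Other genes were put on 5 lists, which covered the members' pathways and, on the last list, other genes lost or mutated in T-ALL. Of these 66 genes, 56 (84.8%) had promoter peaks in both replicates, beside 62.5% of the members and the background of 57%. Of 20 genes of the CDK inhibitor and RB pathway, 17 had a promoter peak in both replicates. Their mean fold percentiles ran from 35.8% at CCNE2 (cyclin E2) to 98.6% at CDKN2D, the INK4 family member on chromosome 19, and RBL2, CCND2 and E2F5 had a peak in replicate 1 only. CDKN2C, the remaining INK4 gene, stood at 96.8%. Both paralogs of CDKN2A and CDKN2B outside 9p21 thus had promoter peaks in both replicates.
Of 8 genes of SCF ubiquitin ligases, the complexes in which FBXW7 works, 6 were called in both. CKS1B was highest (98.3%) and SKP2 lowest (18.1%), USP28 had a peak in 1 replicate, and CUL1, the scaffold of the complex, had no promoter peak but a peak elsewhere. Of 12 genes of the CCR4-NOT complex and its partners, 10 had a promoter peak in both, from CNOT6 (40.4%) to CNOT8 (94.3%), a deadenylase. By this mean CNOT3, with 97.0%, lay above each of them. In replicate 1, however, CNOT8 was higher (96.6% against 96.5%), and only in replicate 2 was CNOT3 above it (97.5% against 91.9%). CNOT10 and BTG1 had a peak in replicate 1 only. Of 10 genes of PI3K signalling and inositol phosphatases, 9 had a promoter peak in both. DOK2 was lowest (41.3%) and SHC1 highest (98.3%), and INPP4B, a phosphatase that acts on the product of SHIP1, had no peak. SHC1 and CKS1B lie side by side and were given the same peak. Of 16 other genes lost or mutated in T-ALL, 14 had a promoter peak in both, from EED (1.82%) to DNM2 (99.0%), and EZH2 and STAG2 had a peak in replicate 1 only.

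**Figure D5:**
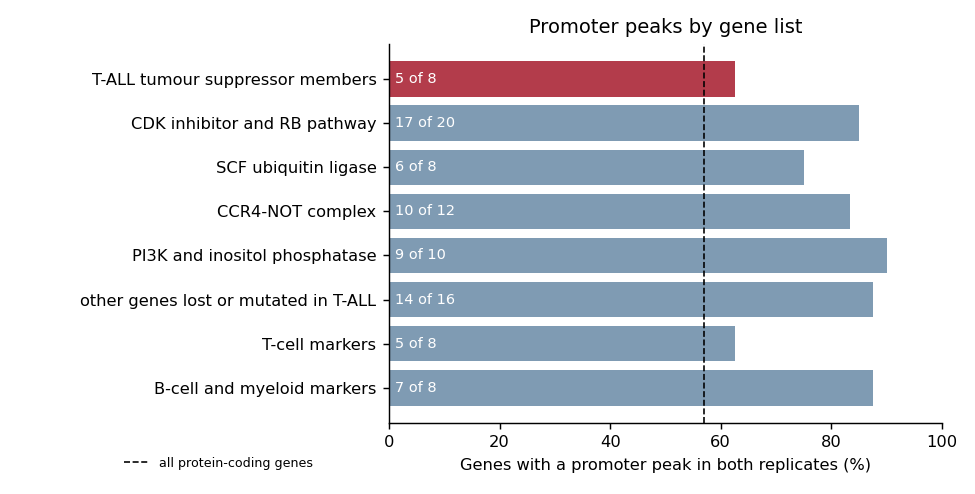
Share of genes whose promoter was called in both replicates (x axis, in %) for the 8 members and 7 gene lists, with the counts in the bars and the share of all protein-coding genes (57%) as a dashed line. The members (5 of 8) lie near the line, and the 5 lists of pathway genes and of other genes lost or mutated in T-ALL lie above it.

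Among these 56 listed genes, the one nearest to each member in its pair of fold percentiles was named. CNOT3 was nearest to CTCF, at a distance of 0.653 percentage points over the 2 replicates, and INPP5D to BCL11B, at 0.659. RB1 was nearest to CNOT4 (4.11), FBXW7 to DOK1 (4.99) and CDKN1B to E2F2 (6.75). CTCF and BCL11B came from the list of other genes lost or mutated in T-ALL, not from a pathway list. With 2 values per gene this likeness is a description only.

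Of the 8 T-cell markers used to check the cell line, 5 had a promoter peak in both replicates, among them LCK, ZAP70 and CD7, the highest (98.5%), and CD3D, the lowest (83.3%, a peak shared with CD3G). CD3E and CD2 had none, and CD28 had a peak in replicate 2 only. Of 8 B-cell and myeloid markers, 7 had a promoter peak in both, from PAX5 (31.5%) to CD79A (94.2%), and MS4A1 had none. The median fold percentile of the genes called in both was 91.5% for the T-cell markers and 64.6% for the B-cell and myeloid markers. Presence of a promoter peak was thus no more frequent among T-cell markers, while the peaks that were present ranked higher by median. No test was run on either.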

How the data were processed

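CUT&Tag libraries for NUDT21 from J.gamma1 cells (2 replicates, 1 group) were analysed. Per the labels and the study's methods, the authors trimmed reads with fastp, aligned them to hg38 with Bowtie2 2.2.5, removed duplicates with Picard and called peaks in each replicate with MACS3 3.0.1. The use of a control library and the caller's settings are not given in the sources used here. Pileups were solved at a scale of 0.9214 in replicate 1 and 1.0 in replicate 2. Whether this came from scaling to a control, and whether both replicates' folds share 1 control as denominator, was not tested. The deposited lists hold fold at the summit (a ratio), −log10 p, −log10 q, a score (unused) and the summit offset. All peaks had a −log10 q of at least 2.00. Total read depth is unknown.

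Peaks on alternate sequences and unplaced contigs were left out (4440 and 1861). Genes were from GENCODE 44 (hg38, the build of the files) and promoter sequences from RefSeq GRCh38.p14. Fragments at the summit were solved from fold and p under the caller's formula (pseudocount 1), which gave whole numbers for 99.5% of peaks in replicate 1, at a pileup scale of 0.9214, and 100.0% in replicate 2, within 0.003 of −log10 p. Named were all members, the highest, lowest and peakless genes of each list, the nearest listed gene of each member, genes in or beside the stretch at 9p21 and genes sharing a member peak. LCK, ZAP70, CDKN2C and the list genes with a peak in 1 replicate were named after their values were seen. The members and lists were chosen with earlier results of these data known. Python 3, pandas and SciPy were used. Scripts were tested on simulated data. Alternatives comprised stricter lists, other distances and starts, and each replicate alone.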

Additional observations from a re-analysis of the deposited data

Results flagged for a closer look

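Peaks on alternate sequences of chromosome 19, which the comparisons left out, held a signal at CNOT3. The summit base of the peak at its start and the 50 bases on each side occur unchanged on 9 alternate sequences. In replicate 1, 8 of these copies held a peak, with folds from 5.95 to 9.30. In replicate 2, 2 of them did, with folds of 6.36 and 7.34. The window of a weaker peak of replicate 1, near the end of the gene, also had 9 copies, of which 2 held a peak, with folds of 4.66 and 5.18. No summit window of CDKN1B, RB1, FBXW7 or INPP5D had such a copy. Of the 10 CNOT3 summit windows searched over both replicates, 3 had one. The peaks about 1.9 kb and 13773 bp past its start, which held its highest folds, had none. The part of the copies in the folds of CNOT3 was not tested.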

How the results depend on the processing

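Of 33 values under alternatives, 21 were unmoved, counts being held to 1.5 times the reported number and the median percentile and the length to 1 SD of the replicates. With the same 5 genes, the median of a single replicate always lies within that SD of the mean. Its being unmoved is thus no check. The 5 genes with promoter peaks were the same 5 under every alternative except the 10000 peaks of highest −log10 p per list, which kept 3 (CNOT3, FBXW7 and INPP5D), 0 members with gene-body peaks and 0 with gene-end peaks, gave a median fold percentile of 22.3% within those lists and lengthened the stretch at 9p21 to 11339022 bp, as fewer peaks can reach fewer genes. With a −log10 q of at least 5 the median fold percentile was 72.5%, with a promoter distance of 1000 bp 78.6%, and ranked by −log10 p 87.2%. With 1000 bp, 5 members had gene-body peaks. A gene-end distance of 300 bp left 0 members and 3000 bp gave 2, adding CDKN1B. With a single replicate the counts were 5, 3 and 1, the median 80.5% or 82.4% and the stretch 6207689 or 6207458 bp. Canonical starts only, chosen after the data had been seen, changed neither result it was run on. No paired analysis was possible because the 2 libraries form a single group.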
